A study of Drosophila melanogaster with 2 samples.

Results

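The genes described here are the cytoplasmic ribosomal protein genes of Drosophila melanogaster, which encode the protein subunits of the ribosome outside mitochondria. They were chosen by symbol, as the protein-coding genes of the chromosome arms named RpL or RpS with a number, together with RpLP0, RpLP1, RpLP2 and sta. The rule found 92 genes of 13945 protein-coding genes, 53 of the large and 39 of the small ribosomal subunit. A gene was counted as having a promoter peak when the summit of a peak lay within 500 bp of any of its annotated transcription start sites (TSSs).

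Ribosomal protein genes are transcribed in nearly every cell and their products are needed in equal amounts, so their promoters are often studied as a jointly controlled group. In Drosophila most of them start transcription at a pyrimidine-rich TCT initiator in place of the common initiator, and the TATA-binding protein relative Trf2 and the zinc finger factor M1BP are known to act there. The factor Dref binds the DNA replication-related element (DRE), and the insulator protein BEAF-32 binds a shorter sequence contained in it. Loss of a single copy of many ribosomal protein genes gives the Minute phenotype of slow development and short bristles.

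The data are chromatin immunoprecipitation with sequencing (ChIP-seq) of whole embryos aged 0 to 8 h from 1 transgenic strain, which carries CG10959 fused to eGFP. The immunoprecipitation used an antibody against GFP, after sonication to fragments of 200 to 800 bp. The labels give 1 group with 2 biological replicates and no second condition, so every comparison is between ribosomal protein genes and other genes, or between the replicates. Whole embryos mix all cell types, and the level of the fusion protein relative to the native one is not given in the sources used here; control libraries were not analysed here.

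The authors' pooled list past their reproducibility threshold, called the main list, contained 3434 peaks (3417 on the arms). The corresponding lists of the replicates held 2341 peaks in replicate 2 and 2065 in replicate 1. A ranked list of 148346 pooled peaks also holds the weak ones. The signal of a peak is the authors' value in their own units and was compared within a list, except for the ratio of the replicates. Read depth is unknown. With 1 group and members chosen by name, counts and medians are given beside those of all genes, as descriptions without a test.

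The promoters below are shown as examples of the sequences in which motifs were counted. Each was read along the gene from 70 bases before to 15 bases after a TSS, in the RefSeq copy of dm6. The TSS was the annotated one nearest to the summit of the gene's strongest promoter peak, taken from the ranked list for RpS6 and RpS14a. Capitals mark the BEAF-32 motif CGATA, which reads TATCG on the other strand, the DRE TATCGATA, and the TCT initiator words (TCTTTT or TCTTTC or CCTTTT or CCTTTC) where they lie within 25 bp of the TSS. The first 4 had a main-list peak, with summits 36 bp, 49 bp, 43 bp and 41 bp upstream of the TSS, and RpS6 and RpS14a had none.
RpS28b, chrX:9554553-9554638, + strand: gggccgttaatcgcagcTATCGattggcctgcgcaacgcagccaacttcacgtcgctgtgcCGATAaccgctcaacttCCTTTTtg
RpS25, chr3R:11216272-11216357, - strand: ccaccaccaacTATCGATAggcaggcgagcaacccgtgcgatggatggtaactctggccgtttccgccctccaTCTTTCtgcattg
RpL28, chr3L:3222945-3223030, - strand: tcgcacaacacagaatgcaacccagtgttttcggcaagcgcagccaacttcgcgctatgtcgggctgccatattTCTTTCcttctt
RpL37-1, chrX:15139352-15139437, - strand: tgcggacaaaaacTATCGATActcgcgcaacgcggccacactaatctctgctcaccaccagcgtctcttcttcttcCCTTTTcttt
RpS6, chrX:7901316-7901401, - strand: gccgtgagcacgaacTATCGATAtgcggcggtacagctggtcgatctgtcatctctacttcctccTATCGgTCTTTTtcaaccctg
RpS14a, chrX:7933672-7933757, + strand: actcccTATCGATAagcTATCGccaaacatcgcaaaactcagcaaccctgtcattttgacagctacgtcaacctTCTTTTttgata
The DRE and the initiator words stood in promoters of both kinds. For comparison, 2 strong peaks at other promoters, Art3 with a signal of 1643 and CG5611 with 1182, are shown on the + strand, 43 bases to each side of the summit, with 8-mers of A and T that were the most enriched at summits outside ribosomal protein promoters in capitals.
Art3, chr3R:15229491-15229577, + strand: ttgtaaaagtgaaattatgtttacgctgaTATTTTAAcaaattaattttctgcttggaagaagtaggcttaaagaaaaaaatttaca
CG5611, chr3R:27636132-27636218, + strand: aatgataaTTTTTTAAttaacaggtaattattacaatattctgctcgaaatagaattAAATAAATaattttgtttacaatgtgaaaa
Both windows are rich in A and T and hold such an 8-mer, as 25.3% of other promoter peaks did within 50 bp of the summit. They centre on the summit, whereas the promoters above are placed by the TSS. The base composition of the 2 kinds is therefore not directly comparable here.

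A main-list promoter peak was present at 41 of the 92 ribosomal protein genes (44.6%), against 11.3% of all 13945 protein-coding genes. Of the large subunit genes 26 of 53 had one (49.1%), and of the small subunit genes 15 of 39 (38.5%). Among other genes of the translation machinery, the share was 13 of 51 translation factor genes (25.5%) and 13 of 73 mitochondrial ribosomal protein genes (17.8%), which encode the subunits of the mitochondrial ribosome. Of 32 genes for ribosome assembly, which encode nucleolar and export factors, 4 had a promoter peak (12.5%), at l(3)72Dn with a signal of 1037, eIF6, which is also among the translation factors, with 576, Ns2 with 354 and NHP2 with 175. Assembly genes thus stood near the share of all genes. Of 6 factors known at ribosomal protein promoters, M1BP, Dref and BEAF-32 had a promoter peak and Trf2, Myc and Max had none. The peak at Dref was that of RpL13, whose TSS faces away from it.

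The large subunit genes with a peak were RpL3, RpL7, RpL7A, RpL8, RpL11, RpL13, RpL14, RpL17, RpL18, RpL19, RpL22, RpL23, RpL23A, RpL24, RpL26, RpL27A, RpL28, RpL30, RpL31, RpL32, RpL34a, RpL34b, RpL37-1, RpL39, RpL41 and RpLP0. The small subunit genes with a peak were RpS4, RpS7, RpS10b, RpS12, RpS15Aa, RpS16, RpS19a, RpS20, RpS21, RpS23, RpS25, RpS27, RpS27A, RpS28b and RpS29. Among the genes without one were RpL4, RpL5, RpL9, RpL10, RpL12 and RpL15 of the large subunit and RpS2, RpS3, RpS5a, RpS6, RpS9, RpS18 and sta, which encodes the subunit also known as RpSA, of the small subunit. Of the ribosomal stalk, RpLP0, the base that anchors it, had a peak with a signal of 96.7. RpLP1 and RpLP2, the proteins it carries, had none. Of the genes for ubiquitin fused to a ribosomal protein, RpS27A had a peak with a signal of 110 and RpL40 had none. The peaks at RpLP0 and RpS27A were absent from the conservative list and from that of replicate 1. With 44.6% of all members called, a split among so few genes is no trait of these groups.

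**Figure D1:**
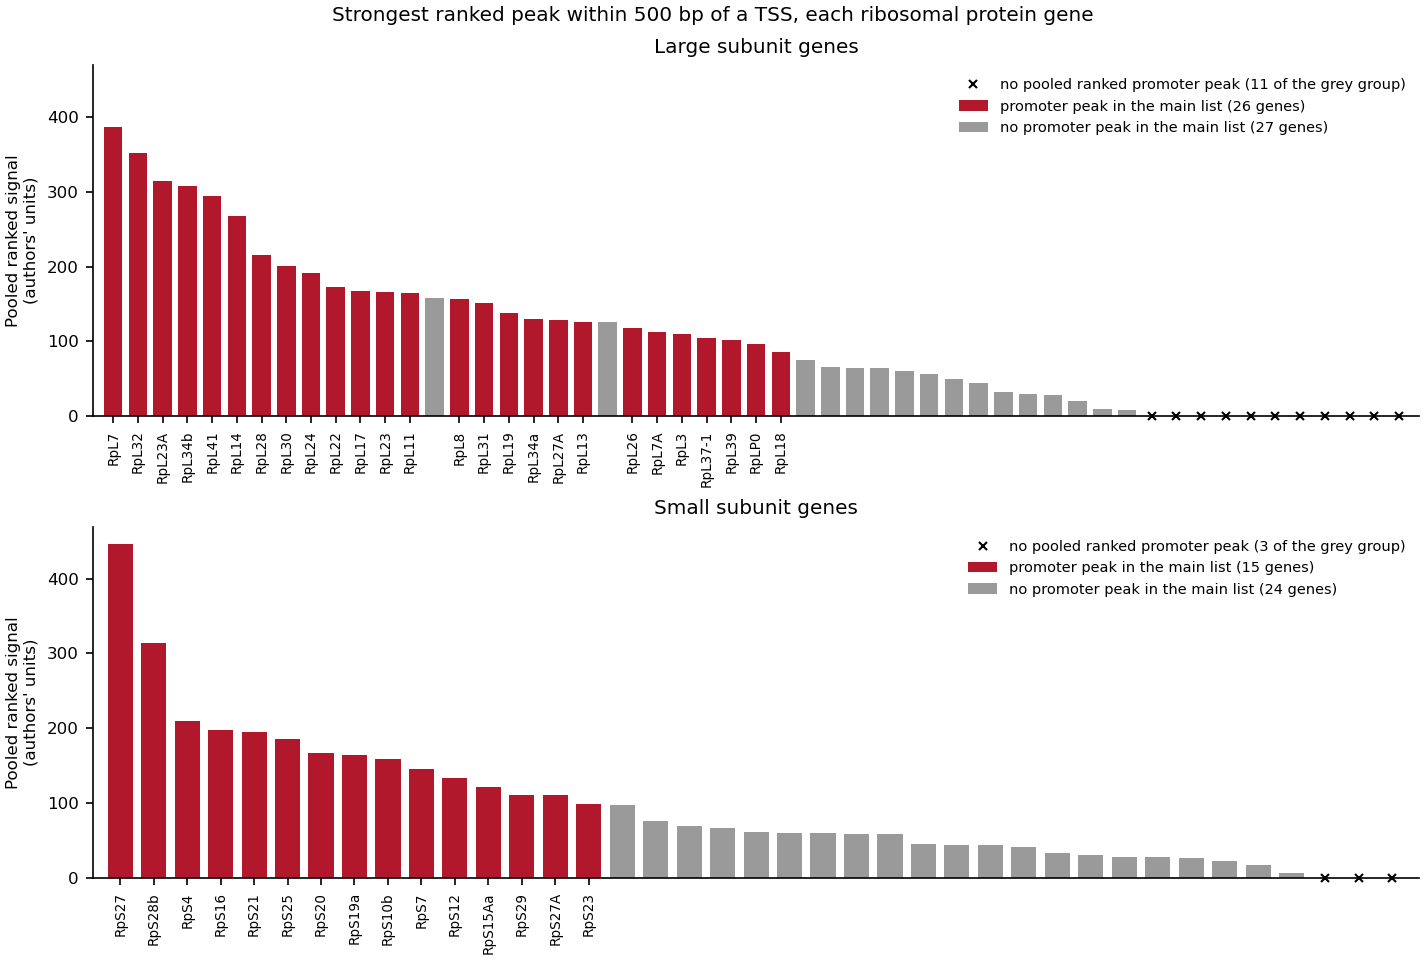
Signal of the strongest pooled ranked peak (vertical axis, authors' units) within 500 bp of a TSS for each of the 92 ribosomal protein genes, large subunit above and small subunit below, ordered by signal. Red bars are the 41 genes with a main-list promoter peak, grey bars genes without one, and crosses the genes with no pooled ranked peak; genes with a main-list peak are named below their bars. RpS27 is the highest at 447 and RpL18 the lowest red bar at 85.0.

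The strongest member peak was at RpS27 (FBgn0039300), a zinc finger protein of the small subunit, at chr3R:25247405-25247623. Its signal was 447 in the main list, where it ranked 195 of 3434, and it was 267 in replicate 2 and 180 in replicate 1. RpL7 (FBgn0005593) followed at chr2L:10200950-10201135 with a signal of 387, and 235 in replicate 2 and 162 in replicate 1. Its summit lay 22 bp downstream of the TSS, unlike the other 7 of the strongest group, which had theirs upstream. RpL32 (FBgn0002626), widely used as a reference gene in expression assays under the name rp49, had a signal of 352 at chr3R:30046232-30046370, with 154 in replicate 2 and 189 in replicate 1. The order of the replicates was thus turned round at RpL32. RpL23A (FBgn0026372), whose product lies at the exit of the peptide tunnel, had 315 in the main list, 182 in replicate 2 and 160 in replicate 1. The signal at RpS28b (FBgn0030136) was 314, with 161 in replicate 2 and 157 in replicate 1, and at RpL34b (FBgn0037686) it was 308, with 188 and 121 in the same order. RpL41 (FBgn0066084), which encodes a very short basic peptide, and RpL14 (FBgn0017579) closed the group of 8 with signals of 294 and 267. All 8 were in the lists of both replicates. By the strongest peak of each gene, the weakest among the 41 genes was RpL18, at 85.0.

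Ribosomal protein peaks were of middling strength. The 43 main-list peaks at the 41 promoters, since RpL18 and RpL34b had 2 each, had a median signal of 159 (quartiles 115 and 200), against 142 (98.6 and 246) for the 1176 other promoter peaks. The second peaks were weak, with signals of 2.79 at RpL18 and 26.5 at RpL34b, and are part of every count of the 43. None of the 43 was among the strongest 100 peaks of the main list, 1 was among the strongest 250, and 15 were among the strongest 1000. With the strongest 500 peaks alone, 7 genes kept a promoter peak, against 2.60% of all genes. In percentile ranks within the list, the median member peak stood 6.03 points above the median of other promoter peaks in the main list, and a difference of 0.854 points was found in the list of replicate 2 and −12.1 points in that of replicate 1. The direction therefore depends on the list, and no difference in strength can be stated.

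The count of genes with a peak changed less between lists. The authors' conservative list, which holds 3184 peaks, put a peak at 39 ribosomal protein genes, against 10.5% of all genes. The list of replicate 2 alone had 43 (8.94% of all genes) and that of replicate 1 had 31 (7.74% of all genes). Of the 41 genes 27 were in both replicates' lists, 11 in that of replicate 2 alone, RpL34a and RpL26 in that of replicate 1 alone, and RpL7A in neither. A further 5 genes had a peak in a replicate's list and none in the main list, among them RpL10Ab in both and RpL36A, RpL4 and RpL9 in replicate 2. In all, 46 of the 92 genes had a promoter peak in at least 1 thresholded list. Neither this count nor the split by replicate above was made for other genes. The genes RpS29, RpS27A, RpLP0 and RpL18 were in the main list and not in the conservative one.

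Below the threshold, 78 of the 92 genes (84.8%) had a promoter summit in the pooled ranked list, against 78.1% of all genes. The corresponding counts were 83 in replicate 2, against 79.5% of all genes, and 68 in replicate 1, against 71.8%. The median pooled ranked signal, with genes lacking a peak taken as 0, was 72.1 at the 92 genes and 33.7 at the other 13853. Among genes without a main-list peak the medians were 30.0 at the 51 ribosomal protein genes and 30.0 at 12325 other genes, and the upper quartiles 59.6 and 45.6. These genes are low in signal by the threshold that left them out, so the values are a description. Among the highest signals without a main-list peak were those at RpL13A (126, summit at the TSS), RpS5a (96.9, 36 bp upstream), RpS28-like (76.3, 478 bp downstream) and RpL36A (75.0, 42 bp downstream). The peak at RpL13A has the highest possible score of 1000 in the ranked list but is not part of the main list.

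The distance rule made little difference, because the summits lay close to the TSS. All 41 genes kept their peak when the limit was 200 bp, against 7.86% of all genes, and 1000 bp added RpS19b, 931 bp away, against 13.7% of all genes. The next nearest summits outside the limit were 1586 bp from RpS3 and 1796 bp from RpS15Ab. Inside it, the summits farthest from a TSS were the second peak of RpL34b at 301 bp, that of RpS20 at 181 bp and that of RpL32 at 161 bp, all upstream.

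Summits at ribosomal protein promoters lay close to the TSS. The median distance of the 43 peaks was 30.0 bp (quartiles 14.5 and 63.5), against 128 bp (74.0 and 229) for other promoter peaks. Within 100 bp of the TSS lay 38 of 43 ribosomal protein summits (88.4%), against 37.7% of the other promoter summits. The nearest groups differed from each other: 10 of 13 translation factor summits lay within 100 bp (76.9%, median 51.0 bp), and 5 of 14 mitochondrial ribosomal protein summits did (35.7%, median 128 bp). The share held in each list, with 90.9% against 40.9% for other promoter peaks in replicate 2, 77.4% against 30.2% in replicate 1, and 82.9% against 36.3% in the conservative list. Most summits were upstream, 37 of 43 (86.0%), as were 80.6% of the others, and offsets ran over −301 to 29 bp. The summits lay exactly at an annotated start in RpS10b and 2 bp upstream of one in RpS12 and RpS29.

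**Figure D2:**
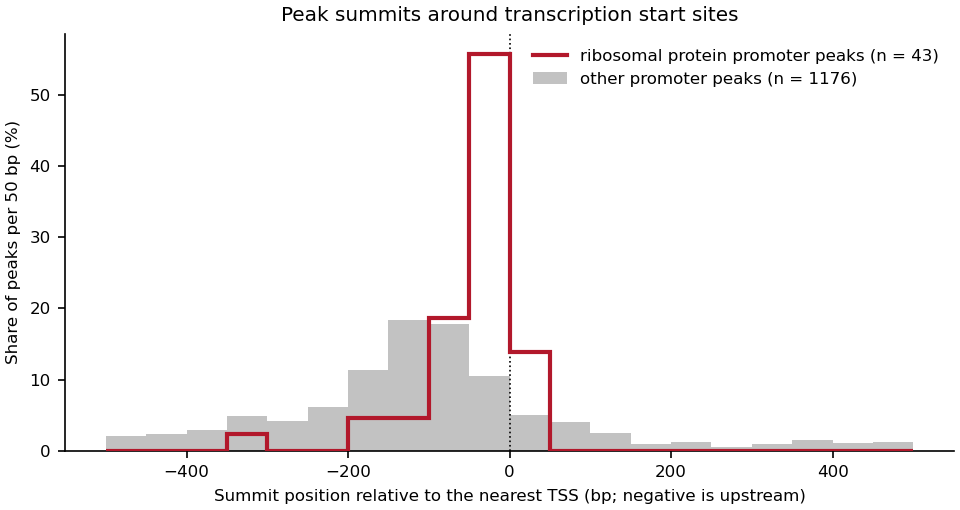
Share of peaks (vertical axis, percent per 50 bp) by the position of the summit relative to the nearest TSS (horizontal axis, bp, negative is upstream), with ribosomal protein promoter peaks as the red line (n = 43) and other promoter peaks in grey (n = 1176). The red peaks gather just before the TSS, with a median distance of 30.0 bp, and the grey ones have a median distance of 128 bp.

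Some of these promoters sit beside another gene. For 23 of the 43 peaks the TSS of another protein-coding gene was also within 500 bp of the summit, as at RpL14 with Nelf-E, RpS27 with Nup37 and RpL7 with Ripalpha. The same count was not made for other promoter peaks, so it cannot be called particular to ribosomal protein genes. The member's own TSS was the nearest for 38 of the 43. The exceptions were RpL32 (nearer to CG7943), RpL34a (Trmt61), RpS20 (CG17271) and the second peaks of RpL34b (CG8132) and RpL18 (Neos). When each summit was given to its nearest gene only, 38 ribosomal protein genes had a peak, against 8.35% of all genes. At divergent promoters the share was 19 of 36 ribosomal protein genes (52.8%) and 21.2% of other genes; at the rest it was 22 of 56 (39.3%) and 7.23%. The number of annotated TSSs also moved with the share, which was 34.0% for ribosomal protein genes and 8.21% for other genes with 1 TSS, 55.2% and 15.8% with 2 TSSs, and 56.2% and 25.9% with 3 or more. Within each of these classes the ribosomal protein genes had the higher share.

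By chromosome, a peak was found at 7 of 19 ribosomal protein genes on 2L, 8 of 20 on 2R, 9 of 14 on 3L, 9 of 23 on 3R and 8 of 15 on X, where at most 12.6% of all genes had one. RpS3A, the only member on chromosome 4, had none, and neither did any of the 80 genes of that chromosome.

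Duplicated genes were counted by set. Of 12 sets of paralogs, exactly 1 copy had a main-list peak in 8, both copies in the RpL34 pair, and no copy in 3 (RpL10Ab and RpL10Aa, RpS5a and RpS5b, RpS14a and RpS14b). Of all 92 ribosomal protein genes 44.6% had a peak, so small sets with exactly 1 such copy would be frequent in any case. In the 8 sets the copies with a peak were RpL7, RpL22, RpL24, RpL37-1, RpS10b, RpS15Aa, RpS19a and RpS28b, with signals of 104 to 387. Several of the copies without a peak are known for other roles or narrow expression: RpL24-like and RpL7-like resemble yeast assembly factors, and RpL22-like and RpS19b are best known from the germ line. Whether such roles go with the lack of a peak was not tested. The pooled ranked signal was 8.95 at RpL22-like, 8.17 at RpL24-like, 19.4 at RpL37-2, 30.0 at RpS10a, 28.2 at RpS15Ab, 33.2 at RpS19b and 58.5 at RpS28a, and RpL7-like had no pooled ranked peak at its promoter. Every one of these was below the signal of its partner. The copies were sorted by the main-list threshold, so this order was largely set by the sorting. Near-identical copies can share reads, and how the authors treated such reads is not given in the sources used here.

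A small set of ribosomal protein genes lay in chromosome regions with few peaks of any kind. The 9 genes RpL5, RpL6, RpL10, RpL15, RpL21, RpL38, RpL40, RpS3A and RpS18 had no promoter summit in any ranked list. This count was not made for all genes. In the pooled ranked list alone, 84.8% of ribosomal protein genes and 78.1% of all genes had one. For 6 of the 9 (RpL5, RpL10, RpL15, RpL21, RpL38 and RpS3A) no ranked summit lay within 5 kb, though the nearest to RpL15 was 5003 bp away. Within 50 kb of these 6 genes lay 7 to 44 ranked peaks (median 24.5). Around the 41 genes with a main-list peak there were 51 to 158 (median 127), around the other 45 without one 77 to 158 (median 129), and around other protein-coding genes a median of 125. RpL5, which binds the small ribosomal RNA of the large subunit together with RpL11, had 15 such peaks, and RpS3A had 7. Of all 485 genes with at most 44 ranked peaks within 50 kb, 5 had a main-list promoter peak (1.03%). How well reads can be placed in these regions was not tested.

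**Figure D3:**
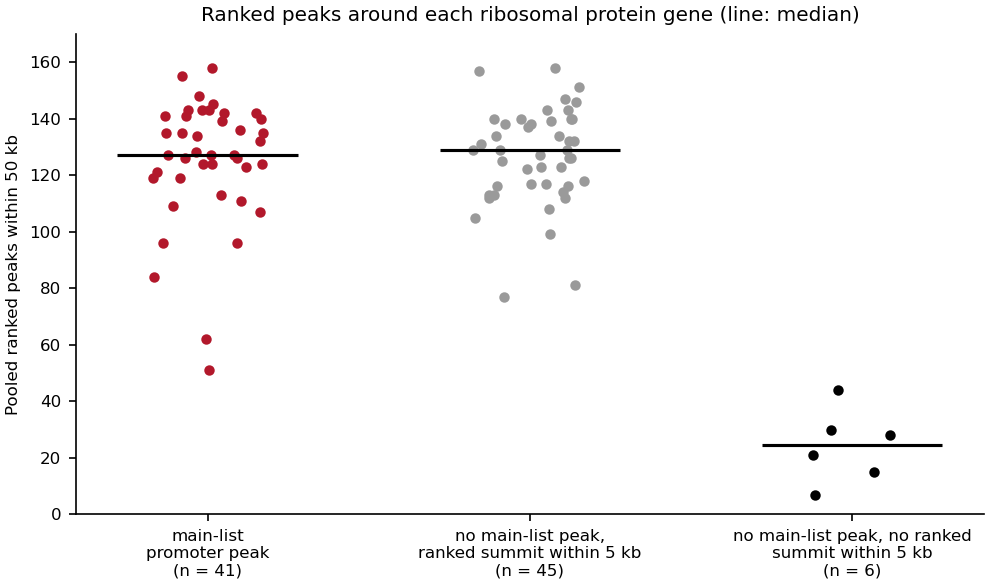
Number of pooled ranked peaks within 50 kb (vertical axis) of each ribosomal protein gene (points), with the median of each class as a line. The 41 genes with a main-list promoter peak (median 127) lie at 51 to 158 and 45 without one (median 129) at 77 to 158, and the 6 genes with no ranked summit within 5 kb lie at 7 to 44.

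Base composition at the summits differed between ribosomal protein and other promoter peaks. The 101 bp at ribosomal protein summits had a median GC content of 48.5% (quartiles 41.6% and 51.5%), against 34.7% (27.7% and 43.6%) at other promoter peaks. Other promoter peaks within 100 bp of a TSS had 38.6%, and peaks outside promoters 35.6%. Of the 43 ribosomal protein summits 40 were above the median of the others, and 15.3% of the others were above the median of the ribosomal protein summits. The promoters themselves differed less, with a median of 46.5% in ribosomal protein genes with a peak and 44.6% in other genes with one. It was 43.6% in ribosomal protein genes without a peak and 42.6% in all protein-coding genes. The lowest GC contents were at RpS20 (24.8%), RpL34a (24.8%) and the second peak of RpL18 (25.7%), and each of these 3 summits lay nearer to the TSS of another gene.

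The motifs at these summits also differed. The DRE, TATCGATA, was within 50 bp of 10 of 43 ribosomal protein summits (23.3%), against 1.53% of other promoter summits and 3.16% of those within 100 bp of a TSS. It was found at RpL19, RpL28, RpL37-1, RpL39, RpL41, RpS7, RpS12, RpS15Aa, RpS25 and RpS29. The M1BP motif GGTCACAC was found at 5 (11.6%), namely RpL7, RpL27A, RpL30, RpLP0 and RpS23, against 0.680% of other promoter summits and 1.58% of those within 100 bp of a TSS. The BEAF-32 motif CGATA, which every DRE contains, was at 21 (48.8%), against 16.9% of other promoter summits and 26.9% of those within 100 bp of a TSS. The E-box CACGTG, the site of Myc and Max, was at RpL7, RpL11 and RpL24 (6.98%), against 1.02% and 0.903% in the same order. GAGAG was at none of the 43, at 11.1% of the others and at 9.93% of those within 100 bp, and the TATA box TATAAA was at 5 (11.6%), against 20.7% and 17.2%. All motifs were counted on both strands.

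The same motifs were found in ribosomal protein promoters with and without a peak. Windows of 101 bp ran from 80 bases before to 20 bases after the main TSS, the one used by most annotated transcripts. In them the DRE was present in 22.0% of ribosomal protein promoters with a peak, 25.5% of those without and 6.76% of all promoters. The M1BP motif was present in 7.32%, 13.7% and 4.93%, and CGATA in 61.0%, 51.0% and 28.7%, in the same order. A TCT initiator word lay within 25 bp of the TSS in 28 of 41 promoters with a peak (68.3%), 37 of 51 without (72.5%) and 5.92% of all. The C of the word was at the annotated start in 0 of these 65 genes. It lay downstream of it in 62, and the median over the 65 was 5 bp downstream. Counted the other way, 12 of 32 ribosomal protein genes with a DRE or M1BP motif had a peak (37.5%), and 29 of 60 without either (48.3%). Among those with a TCT word 28 of 65 had a peak (43.1%), and among those lacking it 13 of 27 (48.1%).

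**Figure D4:**
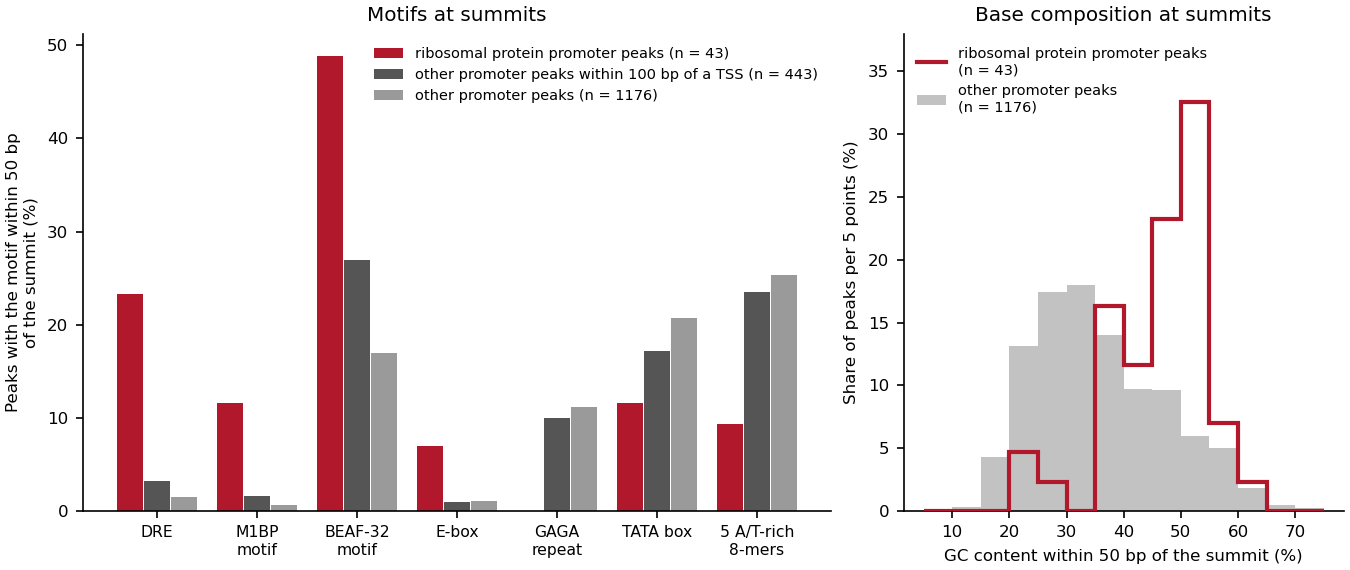
Left, share of peaks (vertical axis, percent) with each motif within 50 bp of the summit, for ribosomal protein promoter peaks (red, n = 43), other promoter peaks within 100 bp of a TSS (dark grey, n = 443) and all other promoter peaks (light grey, n = 1176). Right, share of peaks (percent per 5 points) by GC content of the 101 bp at the summit (horizontal axis, percent); the median is 48.5% in red and 34.7% in grey.

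The A and T words most enriched at the remaining peaks were also counted here. The 5 leading 8-mers of the 3374 peaks at no ribosomal protein promoter were TATTTTAA, ATATTTAA, ATATTAAA, TTAAAAAA and AAATAAAT. At least 1 of them lay within 50 bp of 4 of 43 ribosomal protein summits (9.30%), against 25.3% of other promoter summits and 23.5% of those within 100 bp of a TSS. The words were picked at these other peaks, so a higher share there was built in by the choice. In the windows placed by the main TSS, at least 1 of the 8-mers was in 9.80% of all promoters and 10.2% of those of other genes with a peak. Of ribosomal protein promoters, 0 of 41 with a peak and 6 of 51 without (11.8%) held one. GC content was also higher at the ribosomal protein summits, as given above, and its part in the count at summits was not tested.

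A different word recurred at ribosomal protein summits, and it was picked out after the counts were seen. CCAACTTC lay within 50 bp of 7 of 43 summits (16.3%), against 4 of 1176 other promoter summits (0.340%) and 0.677% of those within 100 bp of a TSS. In the promoter windows it was found in 5 of 41 ribosomal protein genes with a peak (12.2%), 1 of 51 without (1.96%) and 0.308% of all genes. The word was picked at summits of the genes with a peak, most of them close to the TSS. These windows largely reuse that sequence, so the higher share with a peak was favoured by the choice. Of the 37 other genes with the word in the window, 5 had a promoter peak. The 7 occurrences follow with 12 bases before and 10 after the word, which is in capitals, on the strand on which it reads CCAACTTC.
RpS28b, chrX:9554582-9554611, + strand: tgcgcaacgcagCCAACTTCacgtcgctgt
RpL28, chr3L:3222970-3222999, - strand: cggcaagcgcagCCAACTTCgcgctatgtc
RpS21, chr2L:2856076-2856105, + strand: cgcgcagcgcagCCAACTTCacgtccagct
RpS19a, chrX:16637867-16637896, + strand: tattaaccgcagCCAACTTCacgcgccttg
RpL27A, chr2L:4458309-4458338, - strand: ctacaaccgcagCCAACTTCgcttctttct
RpL13, chr2L:9967303-9967332, - strand: aggaaatcgcaaCCAACTTCacgtcgtagg
RpLP0, chr3L:22076073-22076102, + strand: tgggtgccgccgCCAACTTCactctttccg
The centre of the word lay 4 to 34 bp from the summit, and on the strand of the gene in all but RpL13. The bases CGCAG stood directly before it in RpS28b, RpL28, RpS21, RpS19a and RpL27A, and ACG directly after it in RpS28b, RpS21, RpS19a and RpL13. A further word, AGTGTGGC, lay at 7 ribosomal protein summits (RpL8, RpL11, RpL24, RpL31, RpL37-1, RpS10b and RpS15Aa) and at 0.425% of the others, or 1.13% of those within 100 bp of a TSS, and none of these 7 genes holds CCAACTTC at its summit.

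The replicates differed at ribosomal protein promoters in 1 direction. Of the 41 genes 40 had a ranked promoter peak in both replicates, RpLP0 lacking one in replicate 1, and the signal was higher in replicate 2 at 34 of the 40 (85.0%). The median log2 ratio of replicate 2 over replicate 1 was 0.45 (quartiles 0.22 and 0.63), against −0.01 at 1505 other genes with a main-list peak, of which 48.4% were higher in replicate 2. At translation factor genes it was 0.51, with 12 of 13 higher, and at mitochondrial ribosomal protein genes −0.09, with 5 of 13. The largest ratio was at RpS27A, with a signal of 85.7 in replicate 2 and 19.9 in replicate 1, and the smallest at RpL34a, with 41.2 in replicate 2 and 87.9 in replicate 1. The genes lower in replicate 2 were RpL8, RpL23, RpL32, RpL34a, RpS20 and RpS25. RpL32, RpL34a and RpS20 are the 3 genes whose strongest peak lay nearer to another TSS, and of the other 37 genes 34 were higher in replicate 2. Across the 40 genes Spearman's rho between replicates was 0.702, as a description of promoters that share the same 2 libraries.

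**Figure D5:**
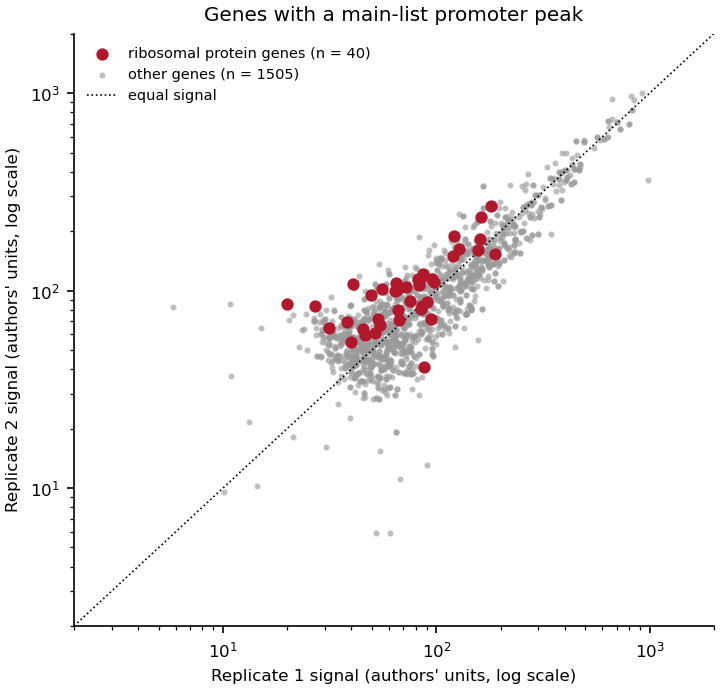
Signal of the strongest ranked promoter peak in replicate 2 (vertical axis, authors' units, log scale) against replicate 1 (horizontal axis, authors' units, log scale) at genes with a main-list promoter peak, with ribosomal protein genes in red (n = 40), other genes in grey (n = 1505) and equal signal as the dotted line. Of the red points 34 of 40 lie above the line, and 48.4% of the grey ones do.

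Base composition moved with this ratio at other genes, where Spearman's rho of GC content and log2 ratio was 0.39, against −0.02 at the 40 ribosomal protein genes, as descriptions. Other genes whose summit had a GC content at or above 41.6%, the lower quartile of the ribosomal protein genes, had a median log2 ratio of 0.35 (n = 391), and those below it −0.11 (n = 1114). With the summit also within 100 bp of a TSS, the median was 0.45 at 181 other genes, of which 83.4% were higher in replicate 2, the same median as at the ribosomal protein genes. Among the ribosomal protein genes the median was 0.45 at the 32 with such a GC content, of which 29 were higher in replicate 2 (90.6%), and 0.44 at the 8 below it, of which 5 were (62.5%). The scale of the signal is not stated, so the ratio is given as a description of these 2 lists.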

How the data were processed

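ChIP-seq peak lists of 2 biological replicates were used as the authors deposited them, on dm6, per the labels. Both ranked and reproducibility-thresholded lists were read, of single replicates and of the pool. Aligner and peak caller were not given in the sources used here. Signal, as deposited by the authors, is the strength of each peak, on an unstated scale. The authors' score is a whole number of up to 1000 and is 830 or more in the main list. The deposited −log10 of the irreproducible discovery rate (IDR) was not used beyond a check of the lists. Another 16 columns, which hold values of single replicates in the pooled ranked lists, were left out because no label says which replicate each belongs to. Depth is unknown.

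Genes and TSSs were those of Ensembl release 115, and sequences came from the RefSeq copy of the same assembly, with coordinates counted from 1. A summit within 500 bp of a protein-coding TSS was a promoter peak. The assignment was tested on simulated data, where every planted gene was recovered. Named in full were the 8 members with the highest signal, the 3 summits closest inside and outside 500 bp, the 5 members without a peak with the highest ranked signal, and paralogs that differ. Some members are not reported by name here. The members, lists and motifs were chosen with earlier results of these data known, and GC content, the share within 100 bp, CCAACTTC, AGTGTGGC, the sparse regions and the replicate subgroups after their values were seen. In the gene lists nop5 stands for Nop58. The enriched 8-mers were ranked by the excess at summits over windows 300 bp away (seed 1). Alternatives covered other lists, distances and assignments. Python 3.11.15, numpy 2.4.6, pandas 2.3.3 and matplotlib 3.10.9 were used.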

Additional observations from a re-analysis of the deposited data

How the results depend on the processing

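No paired analysis was possible because there is 1 group. Of 48 alternatives over 10 results, 39 stayed within 1.5 times the count or the difference in replicate ratio, or, for other values, within 1 SD of the replicates' lists. The count of ribosomal protein genes with a promoter peak was 38 to 43 under the other lists, scores, distances and assignments, except that it was 31 without replicate 2 and 7 with the strongest 500 peaks. Leaving out a replicate gave 31 to 43 genes in all, 21 to 28 of the large subunit and 10 to 15 of the small subunit. It moved the difference in percentile rank of the signal, which was 6.03, to a range of −12.1 to 0.854, so that its direction turned without replicate 2. The share of summits with a DRE, M1BP or BEAF-32 motif was 53.5% in the main list and 41.9% to 50% with a replicate left out, and the share within 100 bp was 77.4% to 90.9%. The difference in median GC content, 13.9 points in the main list, was 14.9 to 15.8 points with a replicate left out and 9.90 points against other promoter peaks within 100 bp of a TSS. The difference in replicate ratio, 0.46 on the log2 scale, was 0.28 to 0.46 against 3 other choices of genes and 0.00 against genes alike in GC content and position. The causes of these shifts were not tested. Depth limits what the lists can hold: a gene without a listed peak may carry binding below the authors' threshold.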
